A study of Mus musculus with 29 samples.

Results

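The chromatin of RAW264.7 macrophages was compared between 4 h and 1 h of lipopolysaccharide (LPS), step by step along the genome. Each of the authors' segmentations gives every 200 bp step 1 of 27 state numbers, and a state stands for a combination of histone marks. The comparison covers all 13194954 steps on chromosomes 1 to 19 and X, out of 13274547 steps on any sequence of the files. The segmentation of untreated cells was used to ask which changes brought a step back to the number it had before LPS. RAW264.7 is a mouse macrophage-like tumour line of Abelson virus origin, and the labels name no deletion or transgene. The 3 segmentations belong to untreated cells, cells given LPS at 100 ng/ml for 1 h and cells given the same dose for 4 h. Peak lists of H3K4me1 and H3K36me2 from cells given flavopiridol for 1 h and then LPS for 4 h, and from cells given flavopiridol for 1 h alone, were laid over the same steps, as were PU.1 peaks of untreated cells.

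LPS, from the outer membrane of Gram-negative bacteria, is sensed by Toll-like receptor 4 and switches on early genes within the first hour and a later wave that depends on newly made proteins. Active promoters carry H3K4me3 with H3K27ac, active enhancers carry H3K4me1 with H3K27ac, and H3K4me1 alone is often found at primed enhancers. H3K79me2 lies over the first part of transcribed genes and H3K36me3 over their bodies, H3K36me2 spreads over broader domains, and H3K27me3 is laid down by Polycomb repressive complex 2 at silent genes. PU.1 is the transcription factor that opens macrophage enhancers, and flavopiridol blocks the kinase CDK9 and with it transcription elongation.

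The series has 29 samples, 26 of them with a peak list, and 1 library per mark and condition. No condition therefore has a spread between cultures, no p-value is given, and a difference between times cannot be told apart from a difference between single libraries. This holds in particular for a change at 1 h that is gone at 4 h, since the 1 h libraries enter both intervals. The sequencing depth is unknown. Intervals are 95% Wilson intervals that cover counting error only, and neighbouring steps are not independent. The labelled cell type was not checked against its marker genes, since no gene annotation of the files' build was used here.

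Each of the 27 numbers was closest in mark profile to itself in the other conditions. The profiles rest on the marks that the states stand for, so this match is a description. It does not exclude a shift within a number: H3K27me3 peaks covered 2.94% of state 27 at 1 h and 8.50% at 4 h. In state 19 they covered 93.2% and 98.5%. A mark is said to be carried by a state when its peaks covered at least 50% of the steps of the state, averaged over the 3 conditions. State 27 carried no mark and took up 1808 Mb at 4 h and 1745 Mb at 1 h. State 19 carried H3K27me3 alone, state 15 H3K36me3 alone, state 16 H3K4me1 alone and state 22 H3K4me3 alone, always under the 50% rule. States 1 and 26 both carried H3K36me2 alone, nearly complete in state 1 and weaker in state 26. States 10, 23 and 24 were promoter states with H3K4me3 and H3K27ac, joined by H3K79me2 in state 10 and by H3K4me1 in state 24. State 20 joined H3K4me3 with H3K27me3, the bivalent combination known from silent, inducible promoters. States 3 and 17 were enhancer states with H3K27ac, H3K4me1 and H3K36me2. Some labels lay near the 50% cut-off. H3K36me2 peaks covered 46.0% of state 17 in untreated cells and 53.3% at 4 h. At 1 h H3K27ac peaks covered 47.3% of state 14, which carries the mark by its average, and 41.5% of state 25, which does not.

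From 1 h to 4 h, 11687569 steps kept their number, which was 88.6% of the genome (95% interval 88.56 to 88.59), or 2338 of 2639 Mb. The share lay between 84.5% on chromosome 11 and 93.9% on chromosome X. A change of number was found in 1507385 steps, or 11.4% of all steps, against 1455655 steps, or 11%, from untreated to 1 h. The intervals thus differed by 0.39 percentage points in the share kept, with the smaller share kept from 1 h to 4 h. Most of the kept steps were empty, with 8506271 of them in state 27 at both times.

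Among steps that carried any other state at 1 h, 71.2% kept it to 4 h, and 28.8% changed. From untreated to 1 h the share kept among steps outside state 27 was 77.6%, and 22.4% changed. This gap depends on which steps are taken: of the steps outside state 27 at 1 h, 71.4% had the same number in untreated cells, close to the share kept from 1 h to 4 h. With states 19 and 27 both left out of the starting steps, 71.7% kept their number from 1 h to 4 h and 70.6% from untreated to 1 h. By state, over the steps at the start of each interval, 16 numbers were kept more often from 1 h to 4 h. The other 11 were kept more often from untreated to 1 h. Changes gathered at the borders of segments. Of the changed steps outside state 27 at 1 h, 34.0% lay next to a 1 h segment boundary, against 12.7% of the kept steps.

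**Figure D1:**
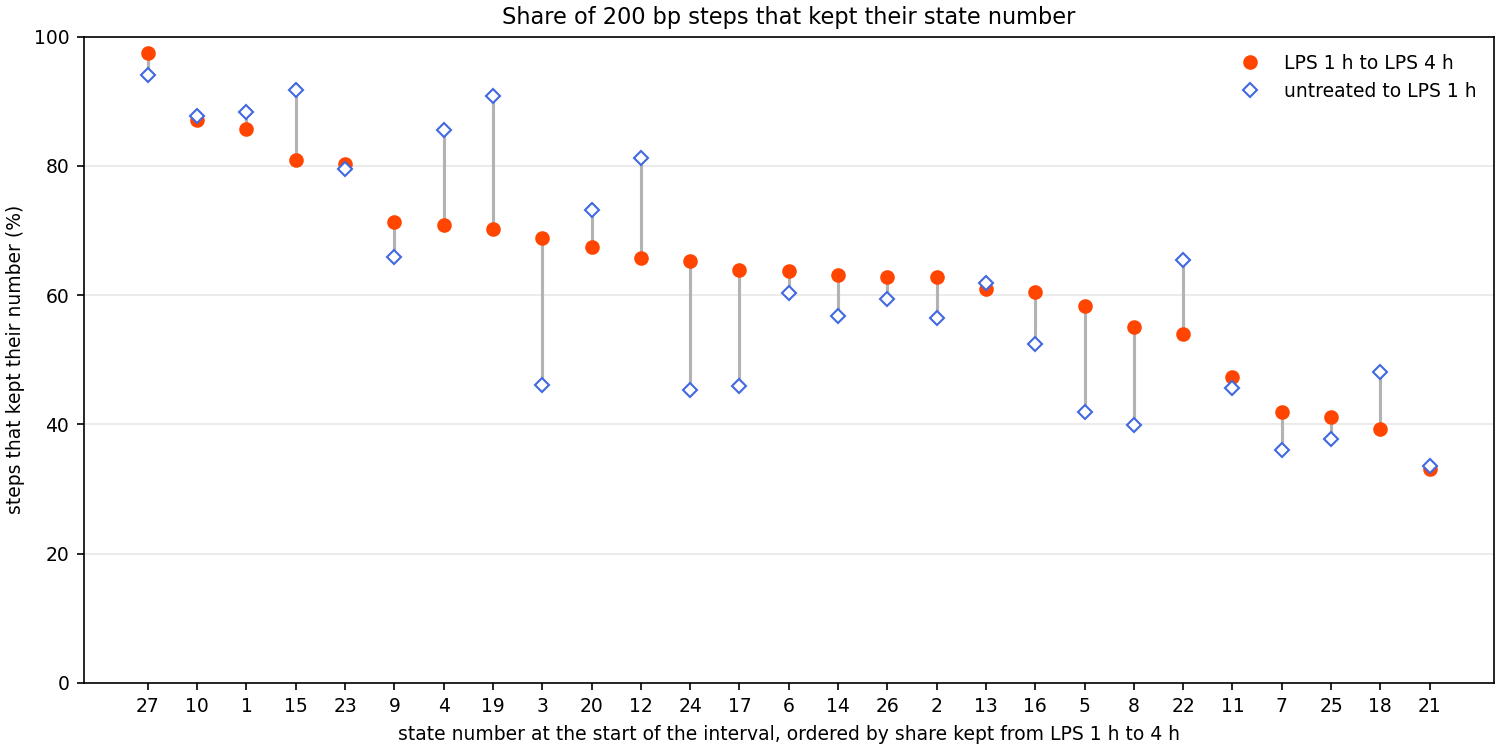
Share of the 200 bp steps of each state that kept their number (%, vertical axis), by state number at the start of the interval (horizontal axis, ordered by the share kept from LPS 1 h to 4 h). Filled circles are LPS 1 h to 4 h and open diamonds untreated to LPS 1 h, 1 segmentation per condition. The enhancer states 3 and 17 and the promoter state 24 sit higher in the later interval, by 22.8, 17.9 and 19.99 percentage points. The H3K27me3 state 19 sits lower. Shares are taken over the steps at the start of each interval, and states 3, 17 and 24 were shortest at 1 h, state 19 longest.

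Promoter states with H3K4me3 and H3K27ac but without H3K4me1 were among the most stable. State 10, the promoter state that also carries H3K79me2, was kept in 87.1% of its 1 h steps (86.8 to 87.5), and state 23 in 80.3% (79.9 to 80.6). In the earlier interval these shares were 87.7% and 79.5%. State 10 covered 5.99 Mb before LPS, 6.79 Mb after 1 h and 7.56 Mb after 4 h, and its main destination was state 9, which adds H3K4me1 and took 7.92% of it. The 2 states therefore behaved alike in both intervals to within 1 percentage point.

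States 24 and 25, with H3K4me3 and H3K4me1, were less stable. State 24, which joins H3K4me3, H3K27ac and H3K4me1, was kept in 65.3% of its steps from 1 h to 4 h. From untreated to 1 h it was kept in 45.3%. Counted from the interval's end, the order reversed: 7207 of its 20344 steps were new at 1 h, and 15787 of 29068 at 4 h. Its length was 5.80 Mb before LPS, 4.07 Mb after 1 h and 5.81 Mb after 4 h, so that it was shortest at 1 h and back at its untreated length at 4 h. Of the 4 h steps of state 24, 18.9% had been in the enhancer state 17 at 1 h and 12.9% in promoter state 23. State 25, which carries H3K4me3 and H3K4me1 but not H3K27ac, was kept in 41.1% and passed mainly to state 24, which took 19.1% of it.

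State 22, which carries H3K4me3 without H3K27ac, was longest at 1 h, when state 24 was shortest. It covered 3.50 Mb before LPS, 4.50 Mb after 1 h and 3.83 Mb after 4 h. At 4 h 54.0% of its 1 h steps were still in it, and 21.3% were in the acetylated promoter state 23. Of the steps that made that move, 55.0% had been in state 23 before LPS. State 20, the bivalent state, was the shortest of all at 1.21 Mb at 4 h and 1.16 Mb at 1 h, and it was kept in 67.5% (66.2 to 68.6). Its main destination was state 22, which does not carry H3K27me3 and took 14.5%.

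The enhancer states 17 and 3 were shorter at 1 h than before or after. State 17 covered 17.95 Mb before LPS, 11.6 Mb after 1 h and 14.1 Mb after 4 h. State 3, the enhancer state in which H3K36me2 is nearly complete, covered 7.30 Mb, 6.90 Mb and 10.5 Mb at the same times and was thus longest at 4 h, at 1.53 times its 1 h length. State 17 was kept in 63.9% of its steps from 1 h to 4 h, against 46.0% in the earlier interval. For state 3 the shares were 68.8% and 46.0%. Counted from the end of each interval, the order reversed. New steps in state 17 were 16527 of 57801 at 1 h and 33626 of 70572 at 4 h. In state 3 they were 17685 of 34492 and 28871 of 52607. The 2 states exchanged steps: 11.7% of state 17 at 1 h was in state 3 at 4 h, and 10.5% of state 3 was in state 17.

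State 3 at 4 h drew on several sources. Of its 4 h steps, 23.4% had been in state 2 at 1 h, which has H3K4me1 and H3K36me2 without acetylation, and 12.8% in state 17. A further 7.97% had been in state 1, with H3K36me2 alone. State 5, which adds H3K79me2 to the marks of state 3, covered 1.54 Mb before LPS, 2.09 Mb after 1 h and 3.36 Mb after 4 h, and 25.5% of its 4 h steps came from state 6, the same combination without acetylation. The largest single source of each was thus the state with the same marks other than H3K27ac.

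State 16, H3K4me1 alone, covered 34.0 Mb before LPS, 28.7 Mb after 1 h and 31.4 Mb after 4 h. From 1 h to 4 h it was kept in 60.5% of its steps, and 9.84% were in state 17, 9.39% in state 2 and 5.63% in state 27. Its 4 h steps that had been elsewhere at 1 h came first from the empty state 27 (36.5%) and then from state 26 (19.96%). State 18, which joins H3K4me1 with H3K27me3, was kept in 39.4%. From state 18, 21.3% of steps were in state 16 at 4 h, which does not carry H3K27me3. A further 17.2% were in state 19, which does not carry H3K4me1. These are labels of the states, and the peak cover of the steps that left state 18 was not counted. State 21, a short segment type with H3K27ac and H3K4me1, had the lowest share kept of the 27, at 33.1%, with 24.7% in state 17 at 4 h.

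State 2, with H3K4me1 and H3K36me2, covered 15.0 Mb before LPS, 19.5 Mb after 1 h and 23.4 Mb after 4 h. It was kept in 62.8% of its 1 h steps, against 56.4% in the earlier interval. Its exits split between an added and a missing mark: 12.6% of its 1 h steps were in state 3 at 4 h, which adds H3K27ac, and 11.8% in state 1, which lacks H3K4me1. Of the steps that entered it, 43.4% came from state 1 and 24.1% from state 16, which are the states of H3K36me2 alone and of H3K4me1 alone. In the steps that came from state 1, H3K4me1 peaks covered 82.6% before LPS, 73.3% after 1 h and 98.2% after 4 h, so that most of them lay in such peaks even when their number was 1.

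H3K4me1 and H3K79me2 occurred together in several states. States 6 and 7 carry the same marks, H3K4me1, H3K79me2 and H3K36me2, yet state 6 covered 5.66 Mb before LPS, 8.61 Mb after 1 h and 10.0 Mb after 4 h, while state 7 covered 10.5, 6.55 and 5.89 Mb. From 1 h to 4 h 20.8% of state 7 was in state 6, and 41.9% was kept. State 8, which carries the marks of state 5, was kept in 55.1%, against 39.9% in the earlier interval, with 15.0% in state 5 at 4 h. New steps in state 8 were 5240 of 13569 at 1 h and 8928 of 16402 at 4 h, so that from the interval's end the order reversed.

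State 9, with H3K4me3, H3K27ac, H3K4me1 and H3K79me2, was kept in 71.3%, against 65.9% in the earlier interval, and 14.4% of it was in state 10 at 4 h. Its new steps were 6126 of 19874 at 1 h and 10213 of 24391 at 4 h, again the reverse order from the interval's end. State 13, with H3K27ac, H3K4me1, H3K79me2 and H3K36me3, was kept in 60.9% and passed mainly to state 7, at 10.7%. State 14, the same set without H3K79me2, was kept in 63.1%, with 8.24% in state 15 and 7.19% in state 16 at 4 h. Of its 4 h steps, 25.9% had been in state 15 at 1 h, with H3K36me3 alone. State 14 thus gave steps to the state of transcribed gene bodies and took more from it.

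**Figure D2:**
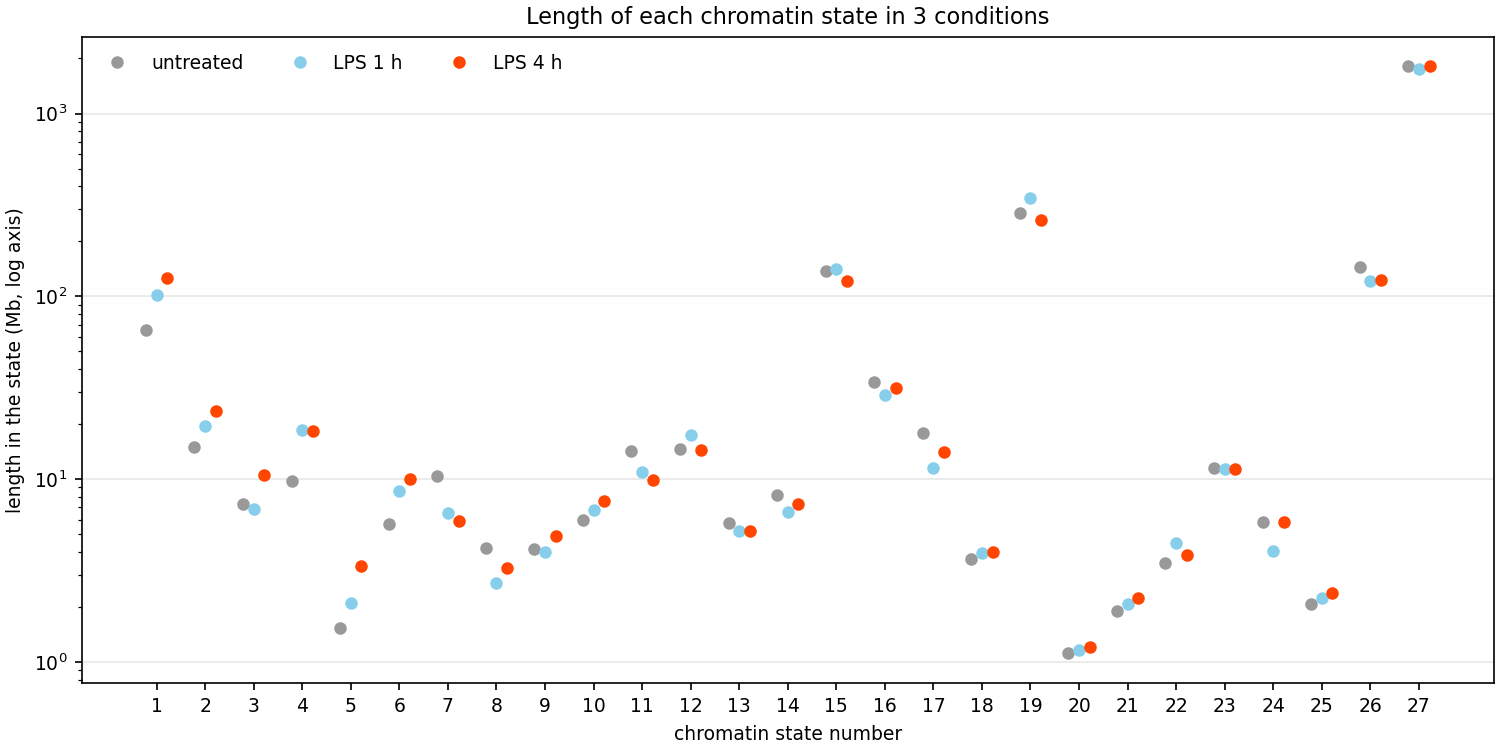
Length of each state (Mb, vertical log axis) by state number (horizontal axis) in untreated cells, at LPS 1 h and at LPS 4 h, 1 segmentation each. State 1 is longer at each time, with 65.3, 101 and 125 Mb, state 19 is longest at 1 h, and the acetylated states 17 and 24 are shortest at 1 h.

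Taking all 11 states that carry H3K27ac as 1 class, the class was shortest at 1 h, and some of the steps that left it were in it again later. The class covered 74.3 Mb before LPS, 63.3 Mb after 1 h and 75.6 Mb after 4 h, and the H3K27ac peak lists themselves covered 83.6, 73.0 and 90.7 Mb. Of the steps in the class at 1 h, 89.5% were in it at 4 h, against 74.4% in the earlier interval. New steps were 40029 at 1 h, in a class of 63.3 Mb, and 94992 at 4 h, in a class of 75.6 Mb. Set against the class at the interval's end, the order thus reversed. At 1 h 95159 steps had left the class, and 39.2% of them were in it again at 4 h. In the other direction 40029 steps had entered it at 1 h, and 35.0% of those were out again.

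The 15 states with H3K4me1 followed the same order of lengths, with 128 Mb before LPS, 115 Mb after 1 h and 134 Mb after 4 h. Of 129610 steps that had left these states at 1 h, 49.1% were in them again at 4 h. The 7 states with H3K4me3 covered 34.2, 34.0 and 37.1 Mb. Of the 15875 steps that had left them at 1 h, 49.1% were back at 4 h. Most steps in a class before LPS and at 4 h but not at 1 h touched a segment boundary at some time. For H3K4me3 this was 98.6%, against 75.1% of steps always in the class, and for H3K4me1 92.6% against 78.8%. Steps new to the class at 4 h were mostly not returns: 39.2% of the H3K27ac steps, 40.7% of the H3K4me1 steps and 29.2% of the H3K4me3 steps that entered between 1 h and 4 h had been in the class before LPS.

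Among the states of transcribed gene bodies, 15, 12 and 4 were kept less often in the later interval, over the steps at the start of each interval. State 15, with H3K36me3 alone, covered 137 Mb before LPS, 141 Mb after 1 h and 121 Mb after 4 h. It was kept in 80.9% of its steps from 1 h to 4 h and in 91.8% from untreated to 1 h. State 12, which adds H3K79me2, was kept in 65.8%, against 81.2% in the earlier interval. State 4, with H3K79me2 and H3K36me2, was kept in 70.9%, against 85.6%. State 11, which joins all 3 of these marks, was kept in 47.3%, against 45.6%, and covered 14.3 Mb before LPS, 10.9 Mb after 1 h and 9.93 Mb after 4 h. From the end of each interval, the order reversed for each of these states. New steps in state 15 were 77817 of 707251 at 1 h and 31705 of 603795 at 4 h. In state 12 they were 27691 of 87239 and 14590 of 71975. In state 4 they were 50540 of 92523 and 26631 of 92206, and in state 11 21905 of 54559 and 23853 of 49644.

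The steps in state 26 at 4 h after state 15 differed between times more in H3K36me2 than in H3K36me3 peaks. Of the 1 h steps of state 15, 13.0% were in state 26 at 4 h and 2.75% in state 1. In the 92048 steps that were in state 26 at 4 h after state 15 at 1 h, H3K36me3 peaks covered 97.9% before LPS, 99.8% after 1 h and 95.7% after 4 h. H3K36me2 peaks covered 34.1%, 47.3% and 60.7% of the same steps. In the 19479 steps in state 1 after state 15 the cover at 4 h and at 1 h was 99.8% and 95.8% for H3K36me2 and 96.1% and 99.9% for H3K36me3, changes of about the same size. State 11, with H3K79me2, H3K36me3 and H3K36me2, passed to state 4 in 24.4% of its steps, which is the same set without H3K36me3.

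State 1, with H3K36me2 alone, was longer at each time. It covered 65.3 Mb before LPS, 101 Mb after 1 h and 125 Mb after 4 h, and was kept in 85.7% of its 1 h steps (81.1% to 88.4% over chromosomes). Its median segment was 1000 bp long before LPS, 1200 bp after 1 h and 1400 bp after 4 h. Of the steps that entered state 1 between 1 h and 4 h, 73.9% came from state 26 and 10.1% from state 15. The opposite move was smaller, with 33249 steps in state 26 at 4 h after state 1 at 1 h, against 142614 steps in state 1 at 4 h after state 26.

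State 26 exchanged steps with each of the broad states 1, 15 and 27. It covered 145 Mb before LPS, 122 Mb after 1 h and 123 Mb after 4 h, and 62.8% of its 1 h steps were still in it at 4 h. Of its 1 h steps, 23.4% were in state 1 at 4 h, 5.98% in state 27 and 3.04% in state 15. Of the steps that entered it, 39.5% came from state 15, 38.7% from state 27 and 14.3% from state 1. Its near constant length between 1 h and 4 h was thus a balance of exits and entries.

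In the 142614 steps of the largest exit, H3K36me2 peaks already covered 89.6% in untreated cells and 96.2% at 1 h, against 99.8% at 4 h. Nearly all of these steps thus lay in H3K36me2 peaks already when their number was 26. States 1 and 26 carry the same mark under the 50% rule, and this exit and its opposite disappear when states are grouped by the marks they carry.

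State 19, the H3K27me3 state, showed the largest movement of all. It covered 286 Mb before LPS, 344 Mb after 1 h and 261 Mb after 4 h. From 1 h to 4 h 70.3% of its steps were kept (52.0% to 76.3% over chromosomes), against 90.8% in the earlier interval. Counted from the interval's end, the order reversed: 422008 of its 1722260 steps were new at 1 h, and 94783 of 1304885 at 4 h. State 27 took 28.3% of its 1 h steps, 486719 in all, and 89419 steps moved in the opposite direction. Together these moves between states 19 and 27 made up 38.2% of all changed steps.

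The H3K27me3 peak lists went the other way at 4 h. They covered 363 Mb before LPS, 381 Mb after 1 h and 425 Mb after 4 h, so that the peaks covered most at the time when the state covered least. In the 486719 steps that were in state 27 at 4 h after state 19 at 1 h, H3K27me3 peaks covered 63.3% before LPS, 81.9% after 1 h and 74.1% after 4 h. At each time most of these steps thus lay in an H3K27me3 peak, although state 27 carries no mark. In the steps kept in state 19 the cover at 4 h was 99.0%. Over the whole genome the state was thus shorter at 4 h than at 1 h while the peaks were longer, and within the moved steps the peak cover was also lower at 4 h. The cause of this mismatch was not tested.

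**Figure D3:**
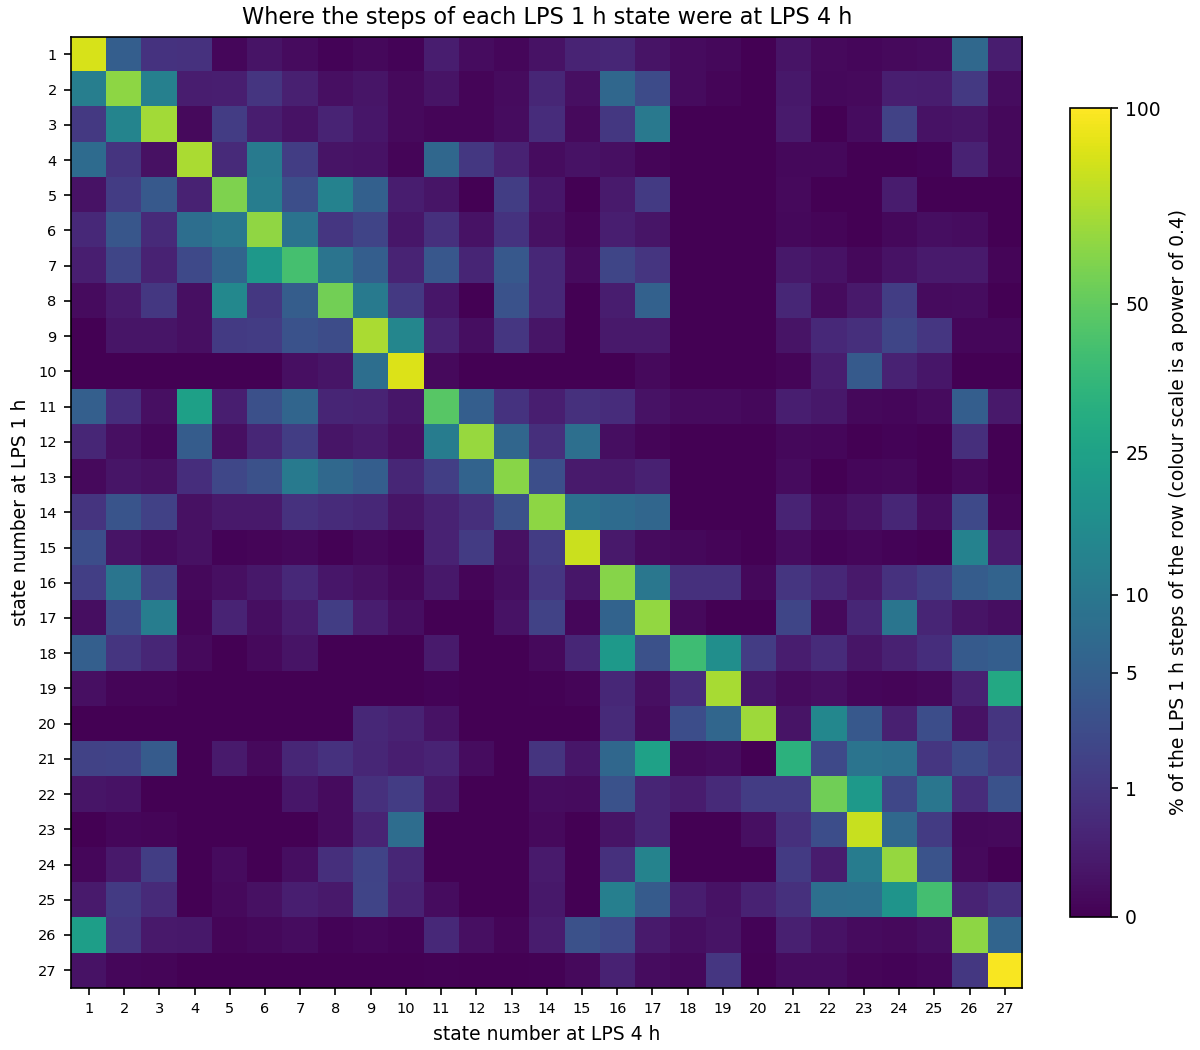
Destination of each state, as the percentage of the LPS 1 h steps of a state (rows, state number at 1 h) that had each state number at LPS 4 h (columns), with a colour scale compressed by a power. The bright diagonal is the share kept, from 33.1% for state 21 to 97.5% for state 27. Off the diagonal, state 19 has 28.3% in state 27, state 11 has 24.4% in state 4 and state 26 has 23.4% in state 1.

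Moves between 557 different pairs of numbers were seen, and the 12 largest held 71.2% of the changed steps. Their starts and ends were states 1, 2, 15, 16, 17, 19, 26 and 27, none of which carries H3K4me3. Beyond the moves already named, 90209 steps were in state 26 at 4 h after state 27 at 1 h and 36363 made the opposite move. A further 25532 steps were in state 16 after state 27, 24331 in state 2 after state 1, 19479 in state 1 after state 15, 18501 in state 15 after state 26 and 14135 in state 17 after state 16. Runs of neighbouring steps with 1 of these moves were short, with a median of 200 to 1200 bp.

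In the moves among enhancer states, peak cover differed between times as well as the number. In the 14135 steps in state 17 at 4 h after state 16 at 1 h, H3K27ac peaks covered 57.2% before LPS, 47.0% after 1 h and 98.5% after 4 h, while H3K4me1 covered at least 97.9% at each time. In the 25532 steps in state 16 at 4 h after state 27, H3K4me1 peaks covered 58.0% before LPS, 55.7% after 1 h and 96.5% after 4 h. H3K27me3 peaks covered 10.2%, 6.73% and 11.4% of these steps at the 3 times, so that the 4 h value was close to the untreated one. Unlike in the exits of states 19 and 26, the peak cover of the mark that sets the states apart thus differed widely between 4 h and 1 h. The steps were picked by their numbers, which stand for marks of the same libraries. High cover at 4 h was thus largely set by that choice, and the difference is a description.

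**Figure D4:**
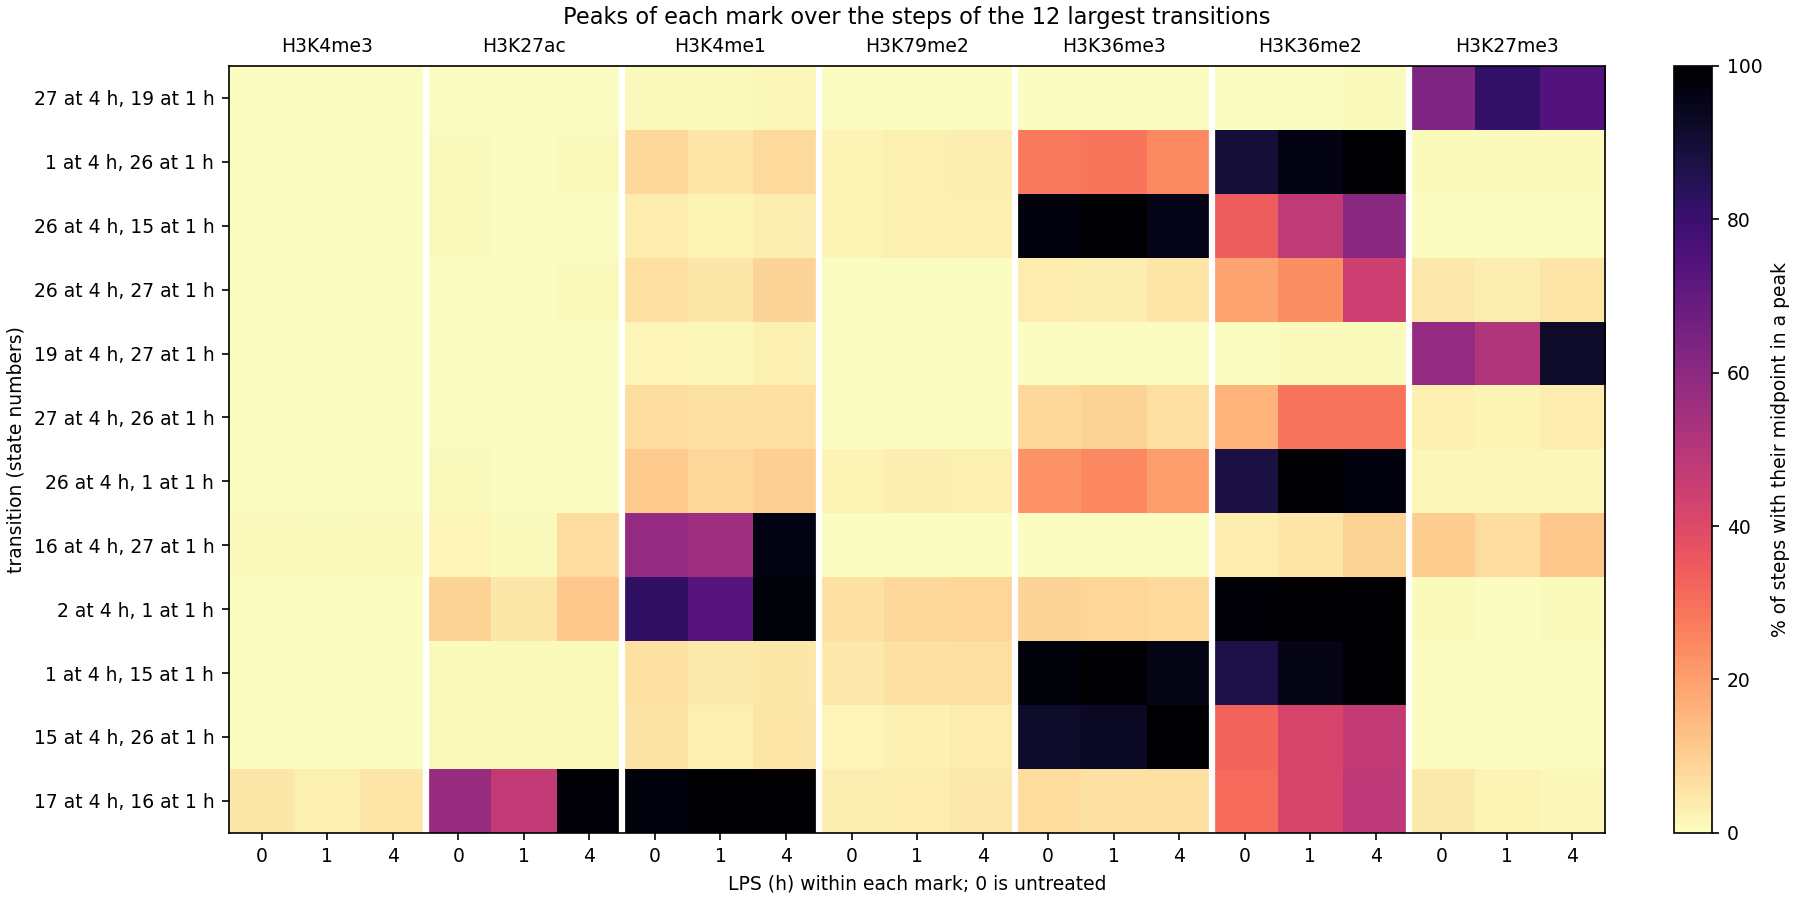
Share of steps with their midpoint in a peak of each mark (colour, %), for the 12 largest transitions from LPS 1 h to LPS 4 h (rows, largest on top), with untreated (0), LPS 1 h and LPS 4 h side by side within each mark. H3K27ac in the move into state 17 is at 57.2, 47.0 and 98.5%, while H3K27me3 in the move out of state 19 stays at 63.3, 81.9 and 74.1%.

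Of the steps that changed between untreated and 1 h, 40.5% had their untreated number again at 4 h (40.4 to 40.6), 47.7% still had the 1 h number and 11.8% had another number. Over chromosomes the returned share was 37.7% to 45.1%. Seen from the later interval, 39.1% of the steps that changed from 1 h to 4 h returned to the untreated number, 49.5% left a number they had held since before LPS, and 11.4% had a different number at each time. Without moves between states 19 and 27, the returned shares were 29.9% and 29.7%.

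Returns were counted beside the same move by other steps of the same 1 h state. For each move from a 1 h state to a 4 h state, the steps that had been in the 4 h state before LPS were set beside the steps that had not. In all 108 moves with at least 1000 steps of the first kind, the first kind took the 4 h state more often, in a median of 30.2% (5.35% to 77.8%), against a median of 2.99% (0.0496% to 22.4%) for the second kind. The same 3 segmentations give both shares, so this is a description, with single libraries at each time. The first kind was picked by its untreated number, and the second includes steps with the 1 h number since before LPS. The comparison cannot separate returns from differences between single libraries, so no conclusion is drawn from it.

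The early moves differed in how far they were undone. The largest, into state 19 at 1 h from state 27 in untreated cells, held 411224 steps, of which 68.6% were back in state 27 at 4 h and 30.3% still in state 19. By contrast, of the 172315 steps in state 1 at 1 h that had been in state 26, 14.6% were back and 81.3% still in state 1. The 120068 steps that left state 19 for state 27 at 1 h were back in 26.3%. By number, the entry into state 19 was thus mostly undone and the entry into state 1 mostly stayed. The H3K27me3 peaks did not follow the number back: in the 282007 steps that returned to state 27 they covered 43.4% before LPS, 75.5% after 1 h and 66.4% after 4 h.

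Several early moves out of states 1 and 26 were undone over most of their length. Of the 19870 steps in state 26 at 1 h that had been in state 1, 77.8% were back in state 1 at 4 h, the highest value of the 108 early moves of at least 1000 steps. Of the 60661 steps in state 15 at 1 h that had been in state 26, 54.1% were back, and of the 38741 in state 27 that had been in state 26, 58.2%. The 24673 steps in state 4 at 1 h that had been in state 11, a state that also carries H3K36me3, were back in 16.0% and still in state 4 in 71.7%. In 34 of the 108 early moves more steps were back than still at the 1 h number.

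**Figure D5:**
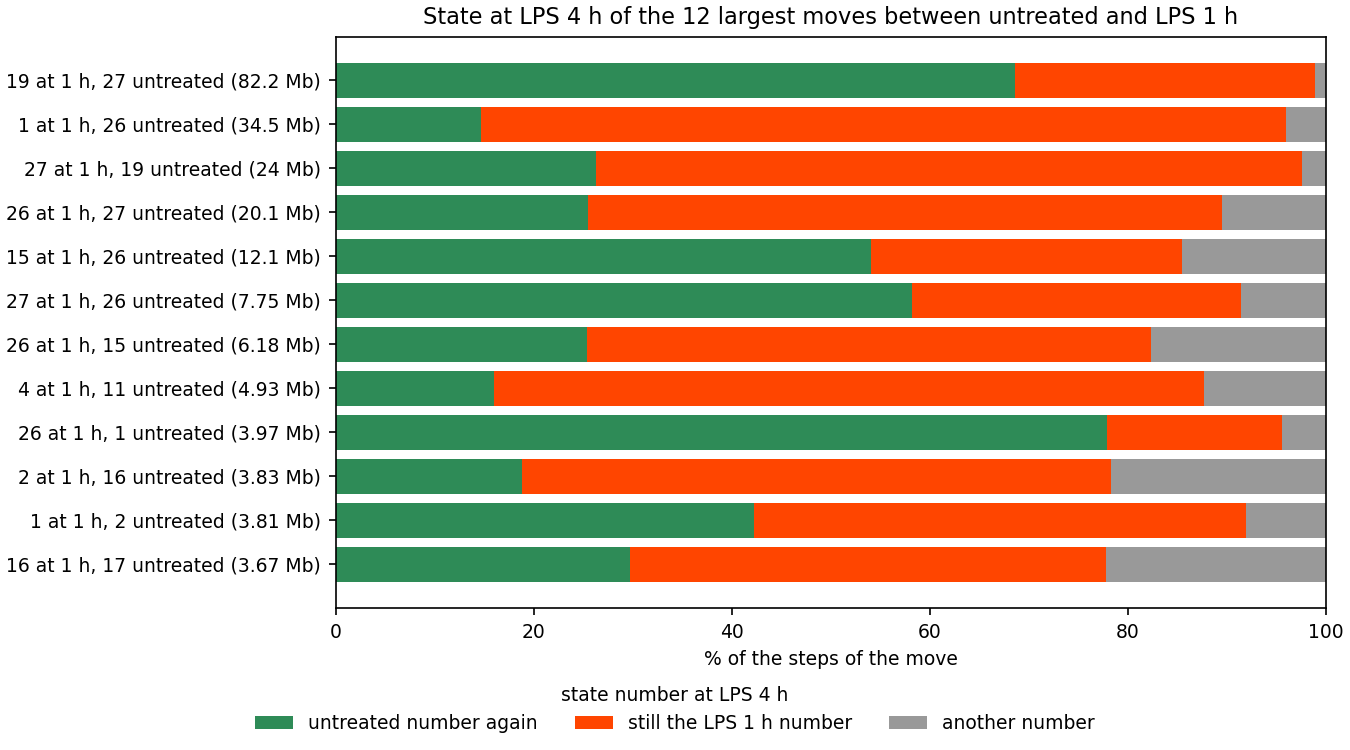
State number at LPS 4 h of the steps of the 12 largest moves between untreated and LPS 1 h (rows, largest on top, with the length moved), as a percentage of the steps of the move. Green is the untreated number again, orange still the 1 h number and grey another number. The return is 68.6% for the entry into state 19 from state 27 and 14.6% for the entry into state 1 from state 26.

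The enhancer moves lay between these extremes. Of the 18362 steps that were in state 16 at 1 h after state 17 in untreated cells, and so had left an acetylated state, 29.7% were in state 17 again at 4 h, 48.1% stayed in state 16 and 22.2% had another number. Of the 14135 steps that entered state 17 from state 16 between 1 h and 4 h, 38.6% were returns and 45.5% had been in state 16 before LPS. In the returned steps H3K27ac peaks covered 99.3% before LPS, 64.5% after 1 h and 98.9% after 4 h. In the steps with state 16 at both earlier times it covered 26.9%, 33.5% and 98.1%.

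PU.1, mapped in untreated cells and not listed in the labels as part of the segmentations, differed between these groups. PU.1 peaks overlapped 57.3% of the steps that moved into state 17 from state 16, against 43.9% of the steps kept in state 16 and 73.0% of those kept in state 17. Among the moved steps the share was 70.6% in those that returned to state 17 and 52.3% in those that had been in state 16 before LPS. Over all steps it was 2.71%. The new entries thus lay between the kept steps of the 2 states, and the returned ones near the kept state 17.

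The move into state 16 from the empty state 27 showed the same order. PU.1 overlapped 23.6% of these steps, against 0.545% of the steps kept in state 27 and 43.9% of those kept in state 16. It overlapped 34.6% of the returned steps and 19.9% of those that had been in state 27 before LPS. In the moves among states 1, 15, 19, 26 and 27 the share was 1.02% to 1.91%, below that of all steps.

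For the class of H3K27ac states, PU.1 overlapped 48.4% of the steps in the class at all 3 times. It overlapped 38.3% of the steps in it before LPS and at 4 h but not at 1 h, and 28.8% of those in it only before LPS. Steps in the class at 4 h only had PU.1 in 19.8%, those in it from 1 h onwards in 25.4% and those never in it in 1.39%. Between 84.9% and 94.3% of the steps of the changing patterns touched a segment boundary at 1 or more times, against 73.6% of those always in the class. Without such steps the shares were 38.9% for the steps that returned at 4 h, 16.7% for those in the class at 4 h only, 46.7% for those always in it and 36.6% for those in it only before LPS. The shares of the last group and of the steps that returned thus lay close together without boundary steps. Steps in the class at 1 h only had PU.1 in 18.7%, or 22.9% without boundary steps, and thus changed places with those in the class at 4 h only.

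The flavopiridol lists were also laid over the H3K36me2 moves, from cells treated with the drug for 1 h alone or followed by LPS for 4 h. In the 142614 steps in state 1 at 4 h after state 26 at 1 h, H3K36me2 peaks covered 61.9% in cells given flavopiridol and LPS and 77.1% in cells given flavopiridol alone. The steps kept in state 1 had 78.6% and 89.1% in the same lists, and those kept in state 26 had 31.6% and 47.2%. The moved steps were thus between the kept steps of both states. This order was already there before LPS and without the drug. In untreated cells H3K36me2 peaks covered 44.6% of the steps kept in state 26, 89.6% of the moved steps and 98.9% of those kept in state 1. The list with LPS covered less of all steps, 8.71% against 11.5% with the drug alone. Without the drug, H3K36me2 peaks covered 10.7% of all steps in untreated cells and 13.2% at LPS 4 h.

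H3K4me1 in the same drug conditions was found over part of the steps that entered state 16 from state 27. With flavopiridol and LPS its peaks covered 31.7% of them and with flavopiridol alone 41.7%, against 58.0% in untreated cells and 96.5% at LPS 4 h without the drug. The 96.5% was largely set by the choice of steps, which were picked for state 16 at 4 h without the drug. In the steps kept in state 16 the values were 67.9% with flavopiridol and LPS and 80.7% with flavopiridol alone. Without the drug these kept steps had 97.5% in untreated cells and 99.7% at LPS 4 h. An effect of the drug on the entry into state 16 was not tested. Over all steps the drug lists of H3K4me1 were shorter, at 4.44% with flavopiridol and LPS and 5.45% with flavopiridol alone. Untreated cells had 7.28% and LPS 4 h without the drug 7.59%. Not every group of steps followed this: in steps kept in state 19, flavopiridol alone gave 1.93% and untreated cells 0.913%.

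The longest run of each large move shows what the numbers stand for at single places, given as mm9 positions. On chromosome 6 (34222001 to 34225200), 3200 bp were in state 17 at 4 h and in state 16 at 1 h. H3K27ac peaks covered all of it at 4 h and none at 1 h or before LPS, while H3K4me1 covered all of it at each time, and PU.1 overlapped 18.8% of its steps. The longest returned run of the same move, 1600 bp on chromosome 12 (103577601 to 103579200), was in state 17 before LPS and again at 4 h. There H3K27ac covered 100% before LPS, 87.5% after 1 h and 100% after 4 h, and PU.1 overlapped 87.5% of the steps.

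The longest run into state 16 from state 27, 3000 bp on chromosome 12 (55698801 to 55701800), had no H3K4me1 peak in untreated cells. H3K4me1 covered 86.7% of it at 1 h, when the number was still 27, and 100% at 4 h. On chromosome 16 (18534201 to 18565000) lay the longest run of any of the 12 moves, 30800 bp in state 26 at 4 h and in state 27 at 1 h. H3K36me2 peaks covered 7.79% of it before LPS, 23.4% after 1 h and 49.4% after 4 h.

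A run on chromosome 14 (23749801 to 23768000) went in and out within the time course. Its 18200 bp were in state 27 before LPS, in state 26 at 1 h and in state 27 again at 4 h, with H3K36me2 peaks over 11.0%, 33.0% and 11.0% of its length. On chromosome 7 (134444801 to 134458000), 13200 bp were in state 15 at 4 h and in state 26 at 1 h, and 97.0% of it had been in state 27 before LPS. H3K36me3 covered 33.3% of that run before LPS, 43.9% after 1 h and 100% after 4 h.

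The largest run out of state 19, 15600 bp on chromosome 1 (62562601 to 62578200), shows the mismatch of state and peaks at 1 place. It was in state 27 over 79.5% of its length in untreated cells, in state 19 at 1 h and in state 27 at 4 h. H3K27me3 peaks covered 46.2% of it before LPS, 82.1% after 1 h and 60.3% after 4 h. The longest run of the opposite move, 6000 bp on chromosome 6 (6765001 to 6771000), had H3K27me3 peaks over 46.7% before LPS, 43.3% after 1 h and 96.7% after 4 h. On chromosome 2 (17982201 to 17983800), the longest run into state 2 from state 1 was covered completely by H3K4me1 and by H3K36me2 peaks at all 3 times, so that only the number changed.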

How the data were processed

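Chromatin immunoprecipitation and sequencing of 7 histone marks and PU.1 was analysed from the authors' files. The authors deposited peak lists and 3 segmentations with 27 states in steps of 200 bp, in which the state name is the value used here. Another segmentation, with 18 states, was not used. The submitters' processing notes name Bowtie 1.0.1, the mm9 build and MACS2. No source used here names the segmentation tool or the read totals, so depth is unknown. Each peak's fold enrichment, a ratio over background, and its −log10 p and −log10 q are the authors' deposited values. They were not used to filter peaks.

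Steps on chromosomes 1 to 19 and X were compared by number between LPS 4 h, LPS 1 h and untreated cells. A mark covered a step when the midpoint of the step lay in a peak, and PU.1 counted with any overlap. For each of the 12 largest moves the longest run, and the longest returned run, could be named. Shares have 95% Wilson intervals, and no test was possible with 1 library per mark and condition. The count of steps was tested on simulated segmentations. An mm9 gene annotation was not used here, so runs are not assigned to genes, the planned gene lists were not run and no sequence is given. Members and lists were chosen with earlier results of these data known. The alternatives were segments of at least 400 bp, no steps at segment edges, no chromosome X, no steps in state 27 at 1 h, states grouped by marks and runs in place of steps. States 19 and 27 as 1 state, and PU.1 shares without edge steps, were added after seeing the data. Python 3.11.15 was used with numpy 2.4.6, pandas 2.3.3, scipy 1.17.1 and matplotlib 3.10.9.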

Additional observations from a re-analysis of the deposited data

How the results depend on the processing

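The share of steps with the same number at 4 h and 1 h, 88.6%, became 89.4% with segments of at least 400 bp, 93.5% without steps at segment edges, 88.2% without chromosome X, 71.2% without steps in state 27 at 1 h, 90.1% with states grouped by marks, 92.9% with states 19 and 27 as 1 state and 46.8% with runs in place of steps. For steps outside state 27 at 1 h, 71.2% became 72.7% with segments of at least 400 bp, 80.1% without edges, 71.3% without chromosome X, 75.6% grouped, 71.7% with states 19 and 27 as 1 and 45.1% with runs. The share of early changes undone at 4 h, 40.5%, became in the same order 42.1%, 45.9% and 40.6%, then 41.3% without state 27 at 1 h, 45.8% grouped, 30.1% with states 19 and 27 as 1 and 35.1% with runs. The returned share of later changes, 39.1%, became 40.4% with segments of at least 400 bp, 43.1% without edges, 40.9% without state 27, 43.1% grouped, 29.8% with states 19 and 27 as 1 and 34.9% with runs, and was 39.2% without chromosome X.

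The difference in share kept between the later and the earlier interval, −0.39 percentage points, was −0.34 without edges, −0.42 without chromosome X, −0.26 without state 27 at 1 h, −0.57 grouped and −0.0522 with states 19 and 27 as 1. It turned to 0.38 with runs in place of steps, and the cause was not tested. Without edge steps the counts of only 3 of the 12 largest moves stayed within 1.5 times, the lowest ratio being 0.102. All 12 did so with segments of at least 400 bp and without chromosome X. With states grouped, 9 of 10 did, the exception being state 1 at 4 h after state 15, whose 19479 steps became 111527, 5.73 times as many, because states 1 and 26 are then 1 group. No paired analysis was possible because no condition has more than 1 library per mark. Depth is unknown and its effect on state lengths was not tested.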

Other observations

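Over the 3 times, 83.3% of all steps had 1 number throughout. Among steps that did not, the most frequent order was state 27 in untreated cells, state 19 at 1 h and state 27 at 4 h, with 282007 steps or 56.4 Mb. The order 19, 19 and 27 followed with 203068 steps, and 26, 1 and 1 with 140081 steps. Chromosome X had the highest share of all steps kept from 1 h to 4 h, at 93.9%, but the lowest share among steps outside state 27 at 1 h, at 65.4%, against a median of 71.0% over the 20 chromosomes. State 18, H3K4me1 with H3K27me3, took 81.8% of the steps that entered it between 1 h and 4 h from state 19, and 76.3% of the steps making that move had been in state 19 before LPS.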
